A study of Cicer arietinum with 12 samples.

Results

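In leaves of chickpea (Cicer arietinum), 60 genes had a far higher level in drought-stressed than in well-watered plants of both genotypes studied. They were chosen from the deposited normalized counts by a drought ratio R, the log2 of the mean of the 3 drought libraries plus 5 over the mean of the 3 well-watered libraries plus 5. A gene was taken if its identifier starts with LOC, if R was at least 2 in each genotype, and if every drought library lay above every well-watered library in each genotype. Of 27233 genes in both deposited tables, 27047 carry such an identifier and 67 of these met the limits, a share of 0.248%. With each genotype taken by itself, 0.584% of those genes met them in ICC8261 and 0.47% in ICC283. Both shares include the 67 genes that met the limits in both. A list of 14 genes was left out by name, 7 of which met the limits, and the other 60 are described here. No gene with another kind of identifier met the limits.

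Total leaf RNA was sequenced at the labelled shoot apical meristem stage in 12 libraries. The drought-stressed plants of ICC8261, labelled drought tolerant, and of ICC283, labelled drought sensitive, grew in soil at 20% of field capacity. The well-watered plants of ICC8261 and ICC283 grew at 80%, all in pots in a glasshouse, and each of the 4 groups held 3 libraries. Libraries held between 8910704 and 12192098 reads assigned to genes. The labels do not state that each library is a separate plant or pot, so p-values measure only the spread between these libraries.

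A leaf that loses water accumulates the hormone abscisic acid, which closes the stomata and, through a kinase cascade and basic leucine zipper factors, switches on genes for protective proteins and solutes. Late embryogenesis abundant proteins and dehydrins, which shield membranes and enzymes in drying cells, are the textbook products of this programme, and homeodomain-leucine zipper and NAC transcription factors are among its known regulators. The 7 genes that met the limits but were left out include DHN (a dehydrin symbol), CAPLEA-1 (named as a late embryogenesis abundant protein), CAHDZ12 (a homeodomain-leucine zipper symbol) and NAC4 (a NAC symbol). Their R values in ICC8261 and ICC283 were 5.06 and 4.98 for DHN, 5.29 and 5.43 for CAPLEA-1, 3.80 and 3.49 for CAHDZ12, and 2.49 and 2.35 for NAC4. The rest of the 7 were LOC101511433 (3.26 and 3.20), FTA1 (2.29 and 3.77) and GRP2 (2.16 and 2.73). The 60 genes have no symbols of that kind. All 60 identifiers matched the reference gene table of assembly Cicar.CDCFrontier_v2.0, which lists 58 as protein-coding and 2, LOC101498338 and LOC101511010, as pseudogenes. That table gave none of them a symbol beyond the LOC number and holds no product names, so no role is stated for any of them. Pseudogenes made up 3.66% of the 24836 table entries that matched identifiers in the files.

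For 4 libraries the deposited sources gave opposite treatments. Turned back into whole reads, the column of each library in the tables equalled exactly 1 count file, but the ICC8261 columns drought 2 and well-watered 1 equalled the files labelled well-watered 1 and drought 2, and the ICC283 columns drought 3 and well-watered 3 equalled the files labelled well-watered 3 and drought 3. The remaining 8 libraries, 2 in each group, carried 1 treatment throughout and are called agreed below. The 60 genes were chosen on the treatments in the tables, so library numbers below follow the tables and results are also given without those 4 libraries. With the count-file labels 0 genes met the limits. Of the leaf markers, 2 of 11 were matched by symbol, the plastid genes petB and ndhA, whose summed level was 22075 to 36653 CPM (counts per 1000000 assigned reads, TMM scaled) in drought and 18426 to 33671 CPM in well-watered libraries. The single matched markers of seed storage tissue and of flowers stayed at or below 0.202 and 0.454 CPM, and none of 4 nodule and 4 meristem markers was matched.

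R used the drought contrast of both genotypes, so the following values describe the choice and carry no test. R ranged over the 60 genes between 2.00 and 5.90 in ICC8261, with a median of 2.99, and between 2.08 and 6.92 in ICC283, with a median of 2.87. The median R of all 27233 genes, which include genes without reads whose R is 0 by construction, was 0 in each genotype. In the 8 libraries of agreed treatment the 60 genes had a median R of 2.85 in ICC8261 and 3.00 in ICC283, with 53 and 58 genes at 2 or more. In bulk leaf RNA, a larger share of cells that express a gene and more RNA per cell cannot be told apart.

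**Figure D1:**
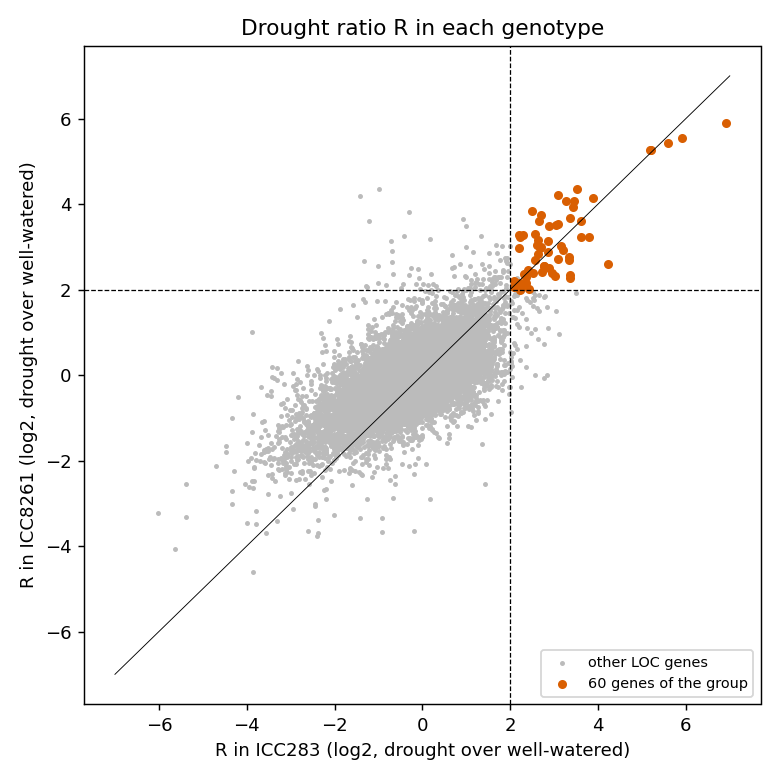
Each point is 1 gene, with R in ICC283 on the x axis and R in ICC8261 on the y axis (log2, drought over well-watered, after adding 5 to each mean of 3 libraries). The dashed lines mark the limit of 2, the solid line marks equal R, and the 60 genes (orange) occupy the upper right corner, where 1 grey gene remains that did not separate in every library. The 14 genes left out by name are not drawn.

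The 10 genes of highest mean R differed in their well-watered level. Means were under 1 CPM in both genotypes for some and reached 14.2 CPM for LOC101488329 in ICC283. LOC101513086 had the highest mean R, with 67.1, 61.6 and 20.5 CPM in drought libraries 1 to 3 of ICC8261 against 0.272, 0.0747 and 0.850 CPM in its well-watered libraries (R = 5.90). In ICC283 its drought libraries held 182, 181 and 145 CPM against 1.56, 0.468 and 0.632 CPM in the well-watered ones (R = 6.92). No drought library of this gene came near a well-watered one in either genotype, and drought library 3 was the lowest in each. LOC101500742 followed with 156, 264 and 129.9 CPM in drought against 1.54, 1.72 and 7.18 CPM well-watered in ICC8261 (R = 5.54). In ICC283 it had 255, 284 and 232 CPM in drought against 2.08, 3.74 and 5.32 CPM well-watered (R = 5.91). Its well-watered ICC8261 libraries were uneven, library 3 lying well above the other two.

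LOC101508200, LOC101490752 and LOC101510690 completed the 5 genes whose R exceeded 5 in both genotypes. LOC101508200 had 49.0, 40.6 and 20.7 CPM in ICC8261 drought libraries against 0.454, 0.448 and 0.386 CPM in well-watered ones, and 67.8, 63.1 and 44.3 CPM in ICC283 drought libraries against 0.935, 0.468 and 0.722 CPM. LOC101490752 had 149.6, 90.1 and 67.0 CPM against 3.72, 1.12 and 1.78 CPM in ICC8261, and 186, 186 and 146 CPM against 2.49, 2.92 and 6.86 CPM in ICC283, drought first. LOC101510690 had 52.0, 46.1 and 24.1 CPM against 0.636, 0.373 and 0.850 CPM in ICC8261, and 94.7, 84.7 and 73.7 CPM against 1.04, 2.34 and 2.08 CPM in ICC283, drought first. In all 3 genes drought library 3 was the lowest of the drought libraries in each genotype. The next 5 by mean R were LOC101507599, LOC101497005, LOC101488329, LOC101490264 and LOC101511679, with R between 3.94 and 4.35 in ICC8261 and between 3.27 and 3.88 in ICC283.

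A pair of genes stood above the others in level. LOC101505722 had 544, 421 and 559.9 CPM in ICC8261 drought libraries against 40.2, 29.9 and 46.6 CPM in its well-watered libraries. In ICC283 it had 863, 948 and 654 CPM in drought against 102, 88.6 and 44.8 CPM well-watered. LOC101505009 had 444, 537 and 458 CPM in drought against 50.2, 38.2 and 55.4 CPM well-watered in ICC8261. In ICC283 it had 839, 879.6 and 493 CPM in drought against 175, 101 and 92.6 CPM well-watered. Their well-watered levels in every library lay far above those of LOC101513086. LOC101500742, LOC101490752, LOC101488329 and LOC101498505 were the next 4 by reads in drought; levels were not corrected for gene length, so this order is one of reads and not of transcripts.

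Over all 60 genes the mean level under drought had a median of 23.7 CPM in ICC8261 (1.52 to 508 CPM) and 31.5 CPM in ICC283 (2.09 to 822 CPM). When well-watered, the median was 2.02 CPM in ICC8261 (0 to 47.9 CPM) and 2.92 CPM in ICC283 (0.0601 to 123 CPM). Below 1 CPM when well-watered were 21 genes in ICC8261 and 14 in ICC283, and none was below 1 CPM under drought. LOC101507903 had 20, 12 and 16 reads in ICC8261 drought libraries against 0 reads in all 3 well-watered libraries, at least 16.8-fold higher against a floor of 3 reads over the well-watered group, which covers counting error only. In ICC283 it had 18, 23 and 22 reads in drought and 0, 2 and 0 reads well-watered.

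**Figure D2:**
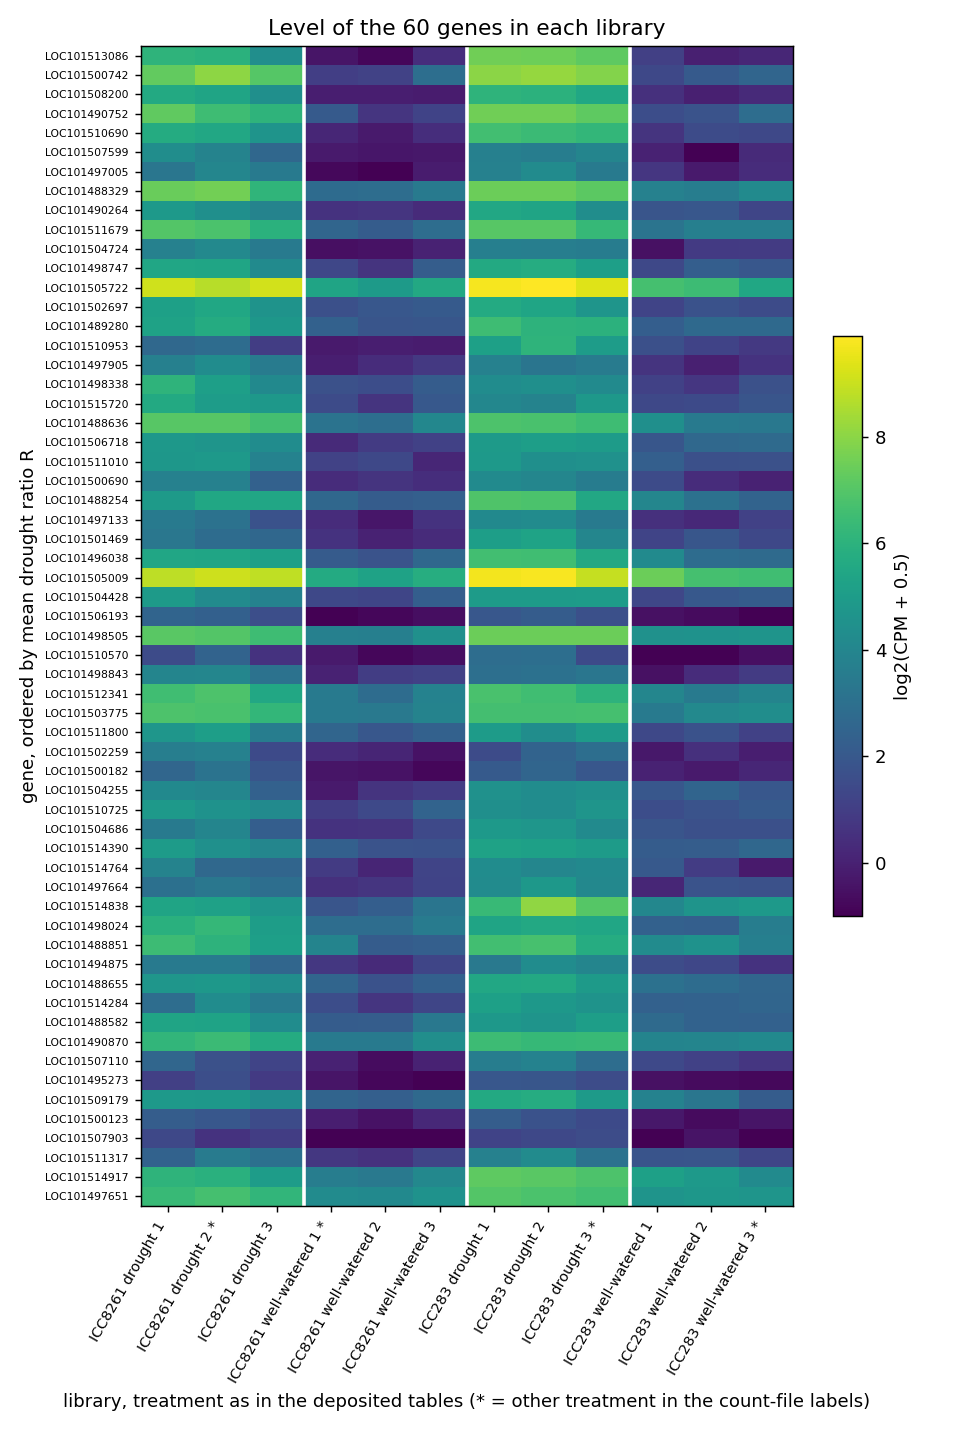
Colour gives the level, log2(CPM + 0.5), of each of the 60 genes (rows, ordered by mean R) in each of the 12 libraries (columns, drought left of well-watered within a genotype, treatment as in the deposited tables). Drought columns are lighter than well-watered columns in every row, as the choice requires, and ICC8261 drought 3 is darker than ICC8261 drought 1 and 2 in most rows; * marks the 4 libraries with the other treatment in the count-file labels.

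The authors' own edgeR tables, made on the same contrast, listed 56 of the 60 genes in ICC8261 and 56 in ICC283, all with a log2 fold change above 0. These tables list 19.1% of the 27233 genes in ICC8261 and 16.9% in ICC283, and nothing is read from that difference, since the choice used the same contrast. The genes not listed, named after their values were seen, were LOC101507903, LOC101510570, LOC101507110 and LOC101495273 in ICC8261 and LOC101507903, LOC101506193, LOC101500123 and LOC101495273 in ICC283. The highest drought value among those was 5.54 CPM, for LOC101507110 in ICC8261. The authors' deposited DESeq2 table gave these 4 genes log2 fold changes between 2.21 and 2.70 in ICC8261, and the authors' deposited DESeq2 table of ICC283 gave its 4 genes between 2.88 and 3.59.

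Among the 60 genes R was of like size in the genotypes for most. The limit of 2 in both genotypes leaves out genes raised in a single genotype, so this likeness is partly set by the choice. It was larger in ICC8261 for 32 genes and larger in ICC283 for 28, the median difference (ICC8261 minus ICC283) was 0.04, and 51 of 60 genes differed by less than 1. Across the 60 genes R in ICC8261 and R in ICC283 had a Spearman rho of 0.60 and a Pearson r of 0.80, a description in which both axes are bounded by the limit of 2 and the 5 genes above 5 weigh heavily. The genes with the most extreme differences in favour of ICC8261 were LOC101506718 (R = 3.85 in ICC8261 and 2.49 in ICC283), LOC101504724 (4.22 and 3.09) and LOC101500182 (3.28 and 2.20). LOC101506718 had similar levels under drought, 27.4, 24.8 and 18.9 CPM in ICC8261 and 29.8, 34.1 and 30.5 CPM in ICC283. Its well-watered levels lay apart, 0.726, 1.34 and 1.62 CPM in ICC8261 and 3.22, 5.85 and 6.23 CPM in ICC283. In the opposite direction stood LOC101510953 (2.61 and 4.23), LOC101511800 (2.27 and 3.37) and LOC101510570 (2.34 and 3.37).

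At the limit, LOC101514917 and LOC101495273 were just inside in ICC8261 with R of 2.00 and 2.02, and LOC101490898 and LOC101514696 were just outside with 1.96 and 1.95. In ICC283 LOC101511317 and LOC101497651 were just inside with 2.08 and 2.09, and LOC101495357 and LOC101488313 just outside with 1.99 and 1.99. The margin between the lowest drought library and the highest well-watered library had a median of 4.40-fold in ICC8261 and 5.43-fold in ICC283, and was below 2-fold for 3 genes in ICC8261 and for 0 in ICC283.

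The 4 libraries of conflicting treatment lay on the side where the tables place them, as the choice requires. On the log2(CPM + 0.5) scale, with the mean of the agreed well-watered libraries set to 0% and that of the agreed drought libraries to 100%, ICC8261 drought 2 stood at a median of 114% over the 60 genes and ICC8261 well-watered 1 at -2.28%. ICC283 drought 3 stood at a median of 90.3% and ICC283 well-watered 3 at 2.24%. All 60 genes were nearer to the agreed libraries of the treatment in the tables in each of the 4. The choice required that each gene separate under the treatments of the tables, which includes these libraries. Their side was thus set by the choice, and nothing is read from it on which labels are right. Under the count-file labels the median R of the 60 genes was 0.45 in ICC8261 and 1.06 in ICC283, a fall likewise largely set by the choice.

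**Figure D3:**
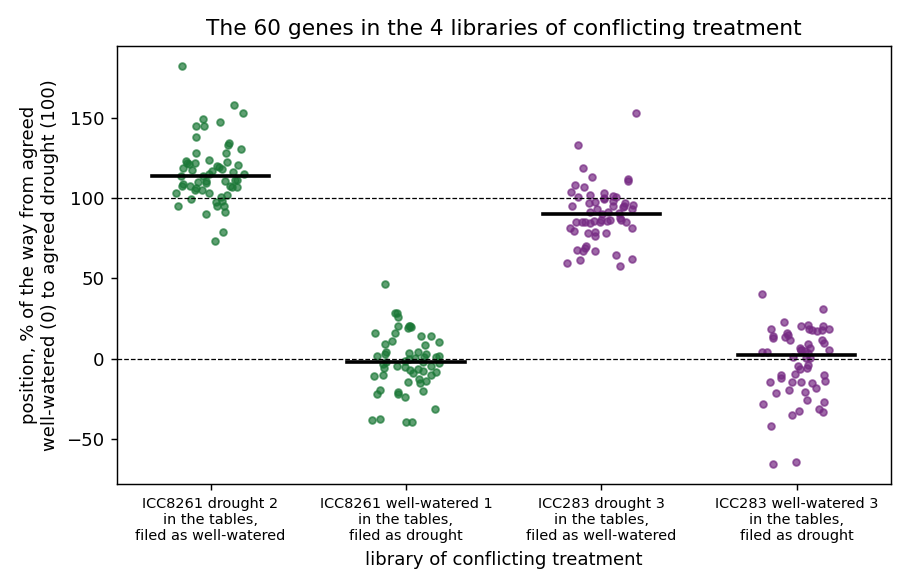
Each point is 1 of the 60 genes, placed on the y axis at its position between the mean of the agreed well-watered libraries (0%) and the mean of the agreed drought libraries (100%) of its genotype on the log2(CPM + 0.5) scale. The 4 columns are the libraries of conflicting treatment, and black bars are medians. The libraries called drought in the tables lie near 100% and those called well-watered near 0%, a separation that the choice of the genes requires.

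Within a group, the same library was often the lowest for many of the genes. Drought library 3 of ICC8261 was the lowest of its 3 drought libraries in 53 of the 60 genes, 88.3%, against 34.7% of all 18749 genes compared. Its level relative to the mean of the other two drought libraries had a median log2 difference of -0.80 in the 60 genes and of 0.00 in all genes. In ICC283 the drought library of conflicting treatment, library 3, was the lowest in 40 of 60 genes, 66.7%, against 35.6% of all genes, with a median difference of -0.34. Among well-watered ICC8261 libraries, library 3 was the highest in 65.0% of the 60 genes and in 30.7% of all genes. In ICC8261 the drought library with the lowest and the well-watered library with the highest levels of these genes were thus both of agreed treatment. The spread between drought libraries, as a median standard deviation on the log2 scale, was 0.52 in ICC8261 and 0.29 in ICC283 (n = 3 each).

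The choice compared libraries only within a genotype, so the difference between genotypes was tested. In the 8 libraries of agreed treatment, 17 of the 60 genes were called lower in ICC8261 than in ICC283 under drought and 0 were called higher (edgeR's quasi-likelihood test, Benjamini-Hochberg adjusted p under 0.05 over 18750 genes). Over all genes 8.04% were called lower and 10.9% higher. The median log2 fold change (ICC8261 over ICC283) was -0.72 in the 60 genes, 49 of which were below 0. In all genes it was 0.01, and 49.3% were below 0. By the tables' treatments, in all 12 libraries, 11 genes were called lower and 0 higher, against 4.1% and 6.19% of all genes. The median of the 60 genes there was -0.52, and 46 were below 0, against 48.9% of all genes. Called lower in both fits were 8 of 60, against 3.65% of all genes, and 0 were called higher, against 5.43%. At an unadjusted p under 0.05 in the 8 libraries 28 genes passed, 1 of them higher in ICC8261, where 16% of all genes were lower and 18.9% higher at that p. DESeq2 called 21 lower and 1, LOC101515720, higher, against 5.91% and 9.7% of all genes.

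The count depended on single libraries. It was 4 without ICC283 drought library 1, 5 without ICC283 drought library 2, 27 without ICC8261 drought library 1 and 9 without ICC8261 drought library 3. Over all genes, the calls in either direction numbered 862, 1602, 3078 and 1773 in the same 4 fits, against 3551 with all 8 libraries, so the falls to 4, 5 and 9 came with fewer calls among all genes. The median of the 60 genes was -1.18 without ICC8261 drought library 1 and -0.29 without ICC8261 drought library 3, the library in which most of these genes were lowest. Since many of the genes share their lowest library, they are not separate replicates of the difference. With the count-file labels 0 genes were called in either direction, 1 had an unadjusted p under 0.05, and the median was -0.69. Those labels exchange a library between drought and well-watered in every group, and the 60 genes were chosen to separate by the tables' treatments. Each group then mixed high and low values of each gene, so the loss of calls was largely set by the choice.

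LOC101510953 had the largest difference of the 8 genes called in both fits. Under drought it had 5.86, 6.72 and 1.46 CPM in ICC8261 and 36.2, 66.6 and 32.1 CPM in ICC283, so no library of one genotype reached those of the other. Its log2 fold change in the 8 libraries was -3.84 ± 0.56 (SE; edgeR adjusted p = 0.0066), and -3.26 ± 0.44 in the 12 libraries. It remained called without each of the 8 libraries in turn, with values between -5.13 and -3.12. LOC101501469 had 9.52, 6.72 and 5.75 CPM in ICC8261 drought libraries and 33.7, 39.1 and 15.6 CPM in those of ICC283. Its log2 fold change was -2.26 ± 0.27 (edgeR adjusted p = 0.0010) and stayed called without each of the 8 libraries in turn. LOC101514284 had 6.90, 18.9 and 10.8 CPM in ICC8261 and 35.6, 27.1 and 23.6 CPM in ICC283 under drought (-1.81 ± 0.26, edgeR adjusted p = 0.0023), again with no overlap and with the call kept without each library in turn.

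LOC101489280 had 38.0, 51.6 and 26.5 CPM in ICC8261 and 89.4, 66.2 and 63.9 CPM in ICC283 under drought (-1.27 ± 0.21, edgeR adjusted p = 0.0052), and lost its call only without ICC283 drought library 1 among the 8 (adjusted p = 0.053). LOC101504686 had 10.8, 15.03 and 4.29 CPM in ICC8261 and 28.7, 25.6 and 18.1 CPM in ICC283 (-1.86 ± 0.39, edgeR adjusted p = 0.015). LOC101514917 had 66.6, 59.4 and 32.3 CPM in ICC8261 and 145, 137 and 116 CPM in ICC283 (-1.51 ± 0.35, edgeR adjusted p = 0.028). The genotypes did not overlap under drought in these 3 genes, and LOC101504686 lost the call without ICC283 drought library 1 or 2 (adjusted p = 0.10 and 0.061), as did LOC101514917 (adjusted p = 0.13 and 0.088). The remaining genes called in both fits were LOC101507110, at -1.79 ± 0.48, and LOC101497664, at -1.65 ± 0.42. LOC101507110 lost the call without ICC283 drought library 1 or 2 or ICC8261 drought library 3, with adjusted p between 0.097 and 0.14, and LOC101497664 without any of 6 of the 8 libraries, with adjusted p between 0.055 and 0.17.

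**Figure D4:**
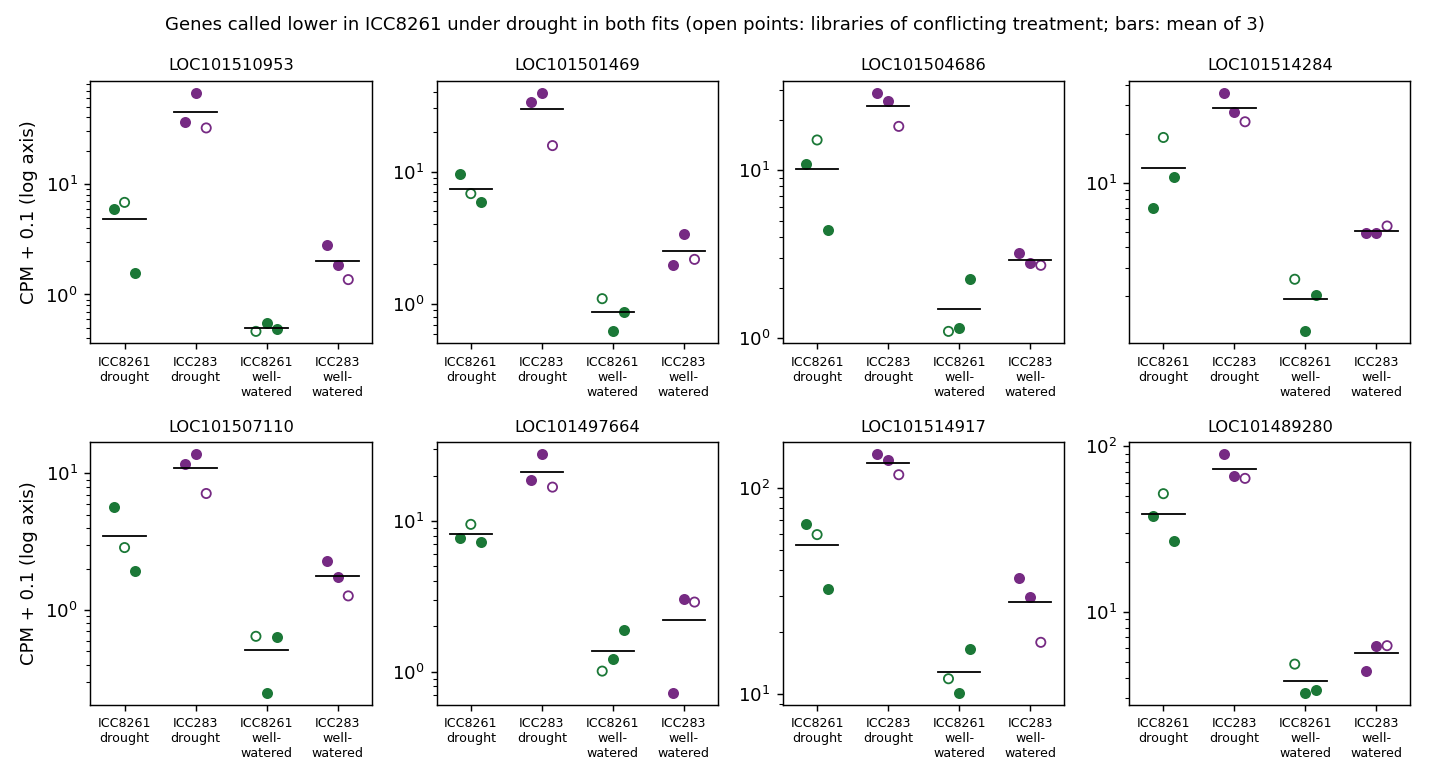
Level in CPM + 0.1 (log axis) of the 8 genes called lower in ICC8261 under drought in both fits, with 1 point per library, bars at the mean of 3, green for ICC8261 and purple for ICC283. Open points are the libraries of conflicting treatment at their place in the tables. In each panel the 3 ICC8261 drought points lie below the 3 ICC283 drought points.

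No overlap between genotypes under drought, with every ICC8261 library of the tables below every ICC283 library, was seen in 21 of the 60 genes, against 16.8% of all genes. The reverse was seen in 1, against 17.0% of all genes. The genes with the highest positive log2 fold changes under drought in the 8 libraries, named after their values were seen, were LOC101515720 (1.32, edgeR adjusted p = 0.053) and the pseudogene LOC101498338 (1.08, edgeR adjusted p = 0.25). LOC101515720 had 48.1, 31.6 and 27.5 CPM in ICC8261 and 15.9, 14.3 and 27.4 CPM in ICC283 under drought. The 2 genes of highest R were not called in both fits: LOC101513086 had a log2 fold change of -2.06 ± 0.59 (edgeR adjusted p = 0.061, and 0.021 in the 12 libraries) and LOC101500742 of -0.91 ± 0.43 (edgeR adjusted p = 0.19).

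When well-watered, 12 of the 60 genes were called lower in ICC8261 than in ICC283 in the 8 libraries and 0 higher, against 15.3% and 11.3% of all genes. By the tables' treatments, in 12 libraries, 9 were lower and 0 higher, against 7.55% and 5.12%. Called in both fits were 7 lower, against 7.14% of all genes, and 0 higher, against 4.35%. The share called lower in the 8 libraries, 20.0%, lay near that of all genes, so that count says little about these genes in particular. In proportion to all genes, the share was larger in both fits (11.7% against 7.14%). It was also larger in the 12 libraries (9 of 60 against 7.55%) and by DESeq2 (17 of 60 against 11.4%). Whether any of these shares differs from that of all genes was not tested. The choice favoured genes low when well-watered, with 21 genes in ICC8261 and 14 in ICC283 below 1 CPM there. Some of these comparisons thus rest on few reads. Every ICC8261 well-watered library lay below every ICC283 one in 22 genes, against 17.3% of all genes, and above it in 1, against 15.1%. The median log2 fold change was -0.03 in all genes, 51.6% of which were below 0, and -0.74 in the 60 genes, 45 of which were below 0. The median of the 60 genes was -0.44 without ICC8261 well-watered library 2, with 39 genes below 0. Without ICC8261 well-watered library 3 it was -1.03, with 50 genes below 0. It was -0.48 when replicate numbers entered the fit as a block. By the tables' treatments, in 12 libraries, it was -0.63, with 51 genes below 0, against 49.6% of all genes. The count of 12 was 4 and 7 without ICC283 well-watered libraries 1 and 2, and 2 and 6 without ICC8261 well-watered libraries 2 and 3. Over all genes the calls in either direction numbered 1967, 4696, 1434 and 2418 in the same 4 fits, against 4992 with all 8 libraries. The count-file labels gave 0 calls in either direction, with 0 genes at an unadjusted p under 0.05, a median of -0.11 and 35 genes below 0. That loss of calls was again largely set by the choice of the 60 genes. At an unadjusted p under 0.05 the 8 libraries gave 19 genes, 2 of them higher in ICC8261, where 22.2% of all genes were lower and 18.3% higher at that p. DESeq2 called 17 lower and 1, LOC101498024, higher, against 11.4% and 9.13% of all genes.

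The 2 most abundant members were among those called when well-watered. LOC101505722 averaged 38.2 ± 11.8 CPM in ICC8261 and 95.2 ± 9.27 CPM in ICC283 (SD, n = 2 each), and its fold change was -1.31 ± 0.19 on the log2 scale (edgeR adjusted p = 0.0022). The ICC283 well-watered library of conflicting treatment, left out of those means, held 44.8 CPM, which lies within the range of ICC8261. LOC101505009 averaged 46.8 ± 12.2 CPM in ICC8261 and 138 ± 52.6 CPM in ICC283 (SD, n = 2 each; -1.56 ± 0.27, edgeR adjusted p = 0.0055). Under drought both genes were called lower in ICC8261 in the 8 libraries (-0.71 ± 0.18 and -0.93 ± 0.26) and in the 12 libraries had adjusted p of 0.12 and 0.15. LOC101506718, the gene whose R differed most in favour of ICC8261, was lower in ICC8261 when well-watered (-1.59 ± 0.36, edgeR adjusted p = 0.012) and had -0.47 ± 0.24 under drought (edgeR adjusted p = 0.20). Its well-watered call was lost without ICC283 library 2 or ICC8261 libraries 2 or 3 (adjusted p = 0.062, 0.11 and 0.061), while those of LOC101505722 and LOC101505009 held without each library in turn. LOC101514284, LOC101501469, LOC101514917 and LOC101507110 were called lower in ICC8261 under both treatments in both fits. LOC101507110 was near the floor when well-watered, with 6, 2 and 7 reads in ICC8261 and 21, 14 and 13 in ICC283. Each of these 4 genes lost its well-watered call without at least 2 of the 8 libraries, ICC8261 well-watered library 2 among them. Without that library their log2 fold changes were between -1.76 and -0.96. When each library was left out in turn, LOC101514917 and LOC101507110 kept the call only without ICC8261 drought library 1 or 3. LOC101514917 also lost its well-watered call with the replicate number as a block (edgeR adjusted p = 0.079), without the filter on low counts (0.10) and with upper-quartile scaling (0.0502).

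**Figure D5:**
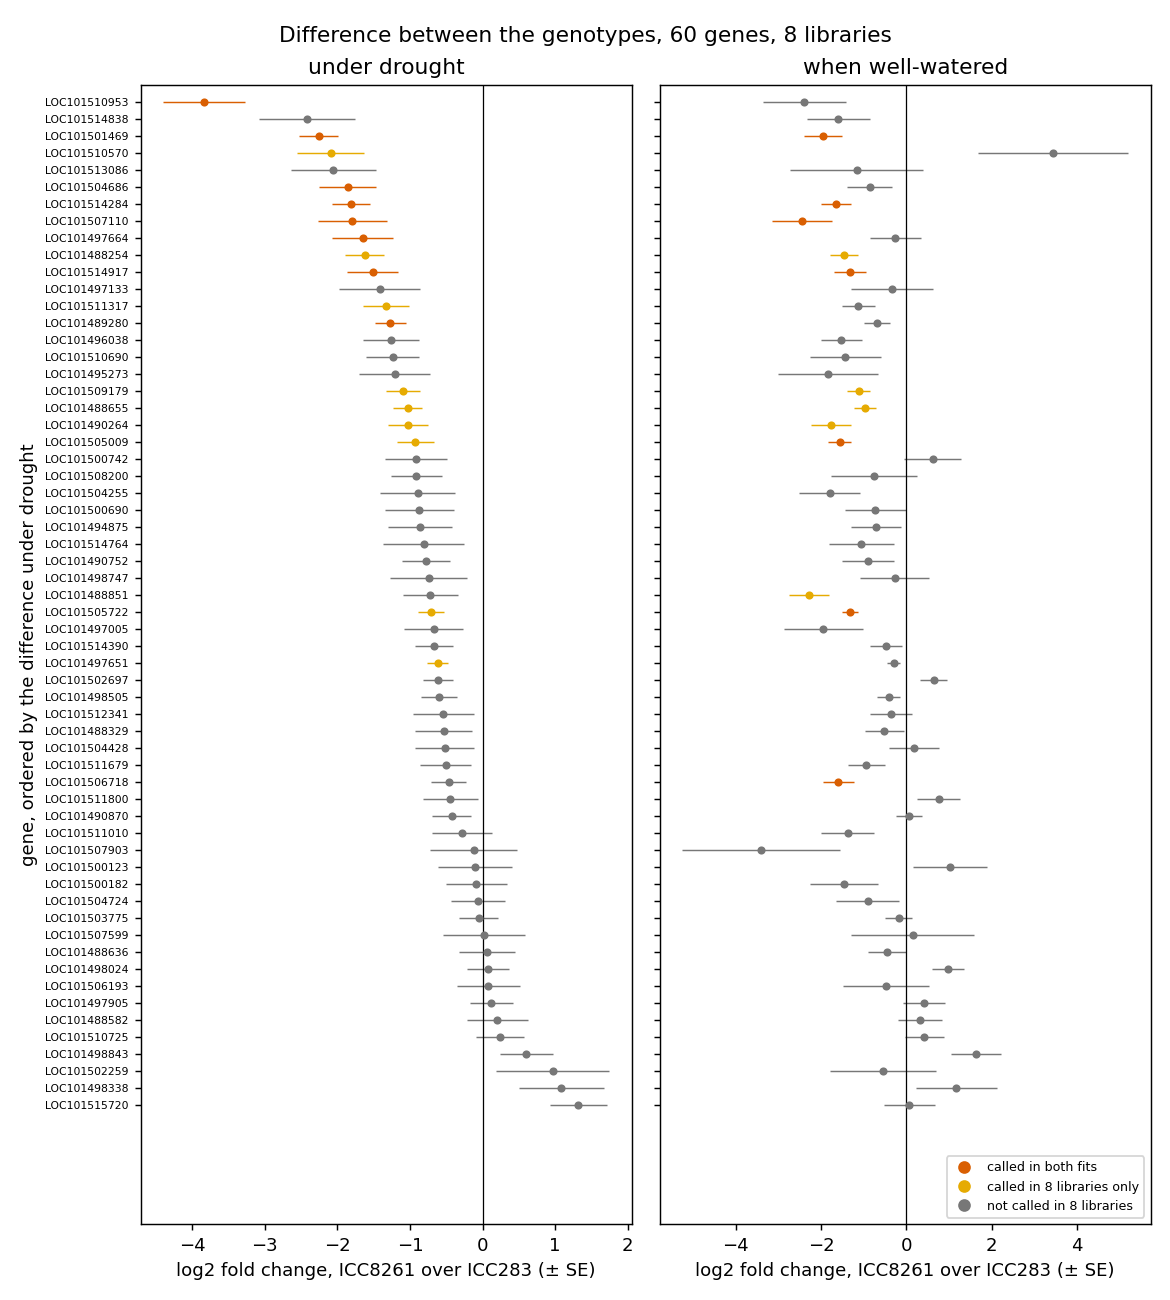
Log2 fold change of ICC8261 over ICC283 in the 8 libraries of agreed treatment (x axis, bars ± SE) for the 60 genes (y axis, ordered by the value under drought), with drought on the left and well-watered on the right. Orange genes were called in both fits, yellow ones in the 8 libraries alone and grey ones in neither or in the 12 libraries alone; under drought 49 of 60 points lie left of 0 and every coloured point does.

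In the reference gene order 2 pairs of the 60 genes were direct neighbours. LOC101505009 lay next to LOC101504686. The first had an R of 3.30 in ICC8261 and 2.57 in ICC283, and the second of 2.499 in ICC8261 and 2.88 in ICC283, while under drought the first held many times the reads of the second in every library. LOC101512341 lay next to LOC101511800, with R of 2.98 and 2.67 for the first and 2.27 and 3.37 for the second. LOC101512341 had 94.3, 116 and 45.4 CPM in ICC8261 drought libraries against 10.4, 6.64 and 13.9 CPM well-watered. LOC101511800 had 25.6, 33.8 and 11.9 CPM in the same drought libraries against 5.45, 3.43 and 4.79 CPM well-watered, with drought library 2 the highest and drought library 3 the lowest for both genes, as library 3 was for most of the 60. In ICC283 LOC101512341 had 109, 94.5 and 65.8 CPM in drought against 15.6, 10.5 and 14.4 CPM well-watered. LOC101511800 had 31.4, 19.5 and 31.3 CPM in drought against 2.08, 2.81 and 1.62 CPM well-watered in ICC283, so there the lowest drought library was library 3 for LOC101512341 and library 2 for LOC101511800. Whether reads were counted by strand is not given in the sources used here, and whether any of the pairs overlap in the annotation used for counting was not tested. Between 44.1% and 53.5% of what the counting step tallied per library was in its class for reads with several alignments, and whether any of the 60 genes has a near-identical copy was not tested.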

How the data were processed

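RNA-seq libraries of chickpea leaves (12 in all) were analysed, grouped by the labels' titles. The authors deposited whole-number counts per gene for each library, whose 5 HTSeq summary lines stayed out of all sums, and tables with normalized counts per library (a signal: counts divided by a size factor within a genotype), log2 fold changes and p-values from DESeq2 or edgeR, per the file headers. The submitters' processing notes name TopHat2 2.1.1 and Cufflinks 2.0.2 next to Trimmomatic, HTSeq and both test packages. For genome build, annotation and strandedness: not given in the sources used here.

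R was computed from the deposited normalized counts. Dividing each column by its smallest value above 0 gave whole reads for 100% of values, within 0.02 reads, and these were compared with the count files at 27233 genes. CPM used TMM factors over 12 libraries. Genotype differences come from edgeR 4.0.16 (R 4.3.3), after filterByExpr (minimum count 10, minimum total 15) and TMM, in 1 model of 4 groups with robust glmQLFit and two-sided glmQLFTest, Benjamini-Hochberg over all genes, calls at 0.05. The first fit used the count files of the 8 libraries of agreed treatment; a second used reads recovered from the 12 table columns. All 60 genes passed the filter, which a gene can do by its drought libraries alone. DESeq2 1.42.0 was an alternative. Each SE is |log2 fold change| divided by the root of its F statistic. The edgeR test of the genotype difference under drought was tried on simulated counts with seeded changes and the same spread for all genes.

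The genes and all lists were chosen with earlier results of these data known. Named genes are the 10 of highest mean R, the 6 with most reads under drought, up to 6 per direction of smallest p under drought and 4 when well-watered among calls in both fits, those at the limit, neighbours, and the 3 most extreme differences of R each way; others are said to be chosen after their values were seen or complete a count. Promoter motifs and protein features had been planned and were not analysed here.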

Additional observations from a re-analysis of the deposited data

How the results depend on the processing

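The number of genes meeting the limits was 60. It was 91 with 1 in place of 5 added to the means, 150 at a limit of 1.5, 37 at 2.5 and 0 with the count-file labels; it was between 50 and 67 with 10 added, without separation, in the 8 agreed libraries, with TMM scaling, and with the genes left out by name kept in (added after seeing the data), and 54 to 72 without each library in turn. In the 8 libraries 51 of the 60 genes met the limits. Under drought 17 genes were lower in ICC8261 (11 with the tables' labels, 0 with those of the count files, 4 to 27 without each library in turn), and 3551 of all genes were called (1913 with the tables' labels, 113 with those of the count files, 862 to 3793 without each library). When well-watered 12 were lower (0 with the count-file labels, 2 to 17 without each library), and 4992 of all genes were called (2356 with the tables' labels, 98 with those of the count files, 1434 to 5594 without each library). Genes called higher numbered 0 to 2 under drought and 0 to 3 when well-watered over all alternatives. For the 60 genes the loss of calls with the count-file labels was largely set by the choice. The cause of the difference between the label sets was not tested.

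With the replicate number as a block the counts were 16 and 10 genes and 3018 and 3182 of all genes. Deviations of same-numbered libraries had correlations between -0.14 and 0.31, with 2 of 7 below 0.1. With 2 libraries a group the deviations mirror each other, so the 2 values of ICC283 well-watered against drought were the same, 0.14. This weak check cannot decide whether the numbers mark pairs, and the main fit did not take them as such. The 6 genes of smallest p under drought and the 6 recomputed when well-watered kept their sign under every alternative run. Of the first 6, all lost the call with the count-file labels, a loss largely set by the choice of the genes. Without the filter 1, LOC101514917, lost it (edgeR adjusted p = 0.074). All 6 kept it with DESeq2, its size factors, upper-quartile scaling and the block. When well-watered, 1 of the 6, LOC101514917, lost it under the block, upper-quartile scaling and no filter. Leaving out a library from groups of 2 leaves 1 library, assumed to vary like the other groups.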
